A study of Drosophila melanogaster with 6 samples.

Results

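The vacuolar proton ATPase (V-ATPase) was followed through 31 genes whose symbol starts with Vha, out of 11982 genes with a symbol on the array. They were picked out by symbol, as probe sets that the platform annotation ties to a single such symbol. For each gene the probe set brightest on average over the 6 arrays was read. These members and the gene lists set beside them were chosen with earlier results of these data known. The 31 genes had 32 probe sets, and only Vha16-1 had more than 1. Vha68-1 and Vha68-2, the other fly genes of the catalytic A subunit, were not analysed here, so of that subunit only Vha68-3 was read.

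Expression was measured in heart/nephrocyte complexes of adult female Drosophila melanogaster on single-channel Affymetrix arrays. Flies had eaten food with 0.1 M glucosamine in 1 group of 3 arrays and food with 1.0 M sucrose in the other group of 3, in both for 21 days. Glucosamine is an amino sugar that feeds the hexosamine pathway, and without an arm on plain food here a difference can come from either diet. The labels mention 30 adult females but leave unsaid how they were divided among the arrays. P-values therefore reflect the spread among these 6 samples, part or all of which may be technical.

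The V-ATPase is a rotary pump. Its cytosolic V1 sector burns ATP and turns a central shaft, and its membrane V0 sector carries protons across the membrane as the ring of c subunits rotates. The pump acidifies endosomes and lysosomes, which matters in nephrocytes because these cells take up proteins from the hemolymph by endocytosis and degrade them, and in insect epithelia it also sits in the plasma membrane and drives ion transport. The fly genome holds several genes for most subunits, and a number of the extra copies are known mainly from testis.

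The labelled tissue was checked against its markers. All 7 nephrocyte markers and the heart and pericardial factor gene Hand were well above the filter on low intensities. Summed intensity of the 7 nephrocyte markers ran from 5532 to 7527 in the glucosamine arrays and from 21445 to 31009 in the sucrose arrays. The sum of 6 midgut markers was 113, 912 and 8293 in glucosamine replicates 1, 2 and 3, against 143, 316 and 488 in the sucrose arrays. In glucosamine replicates 2 and 3 most of it came from betaTry, alphaTry and Jon65Aiii. The midgut marker mex1 read 21.9, 40.1 and 144 against 20.6, 20.3 and 30.7, and the remaining markers read at most 16.7 in any array. The oocyte gene osk had an intensity of 6355 in sucrose replicate 1, against 224 to 942 in the other sucrose arrays and 239 to 340 in the glucosamine arrays. Of the other ovary markers, nanos (129) and Vm26Aa (44.4) were also highest in sucrose replicate 1. The ovary marker grk was highest in sucrose replicate 3 (720, against 651 in replicate 1), and 1 marker was too dim to be tested. Of 4 Malpighian tubule markers on the array, 2 were too dim to be tested. The sum of all 4 was 36.8 to 60.3 in the glucosamine arrays and 39.2 to 266 in the sucrose arrays. In sucrose replicates 1, 2 and 3 the tubule marker ZnT35C read 233, 77.1 and 8.21, and Alp4 read 21.4, 33.2 and 17.1. The 5′ minus 3′ log2 signal of fly RNA controls differed without overlap for 3 of 6, all lower in the glucosamine arrays, with differences of −0.74 for eIF-4a, −0.12 for 18S rRNA and −0.15 for GAPDH. The other 3 overlapped, and 1 of them, for Act5C, had the opposite sign (0.53).

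The array read a nearly complete pump. Of the 31 genes, 16 had mean intensities from 102 to 11901 and passed even a strict filter that leaves out the 60% of features with the lowest mean, which here meant a mean under 66.0. These 16 covered the V1 subunits B, C, D, E, F, G and H, the V0 subunits a, c, c″, d and e, and the accessory protein Ac45. Another 7 genes had means from 10.8 to 23.1, which is near the array's lower end, and passed only the filter on 40% used for testing. The remaining 8 had means from 6.06 to 9.10 and were not tested. In the plot of intensities by array, the 16 and the other 15 stood apart, with no Vha gene between a mean of 23.1 and one of 102. Intensities of different probe sets are not comparable as amounts of RNA, and in whole-tissue RNA fewer cells of a type and less RNA per cell cannot be told apart.

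**Figure D1:**
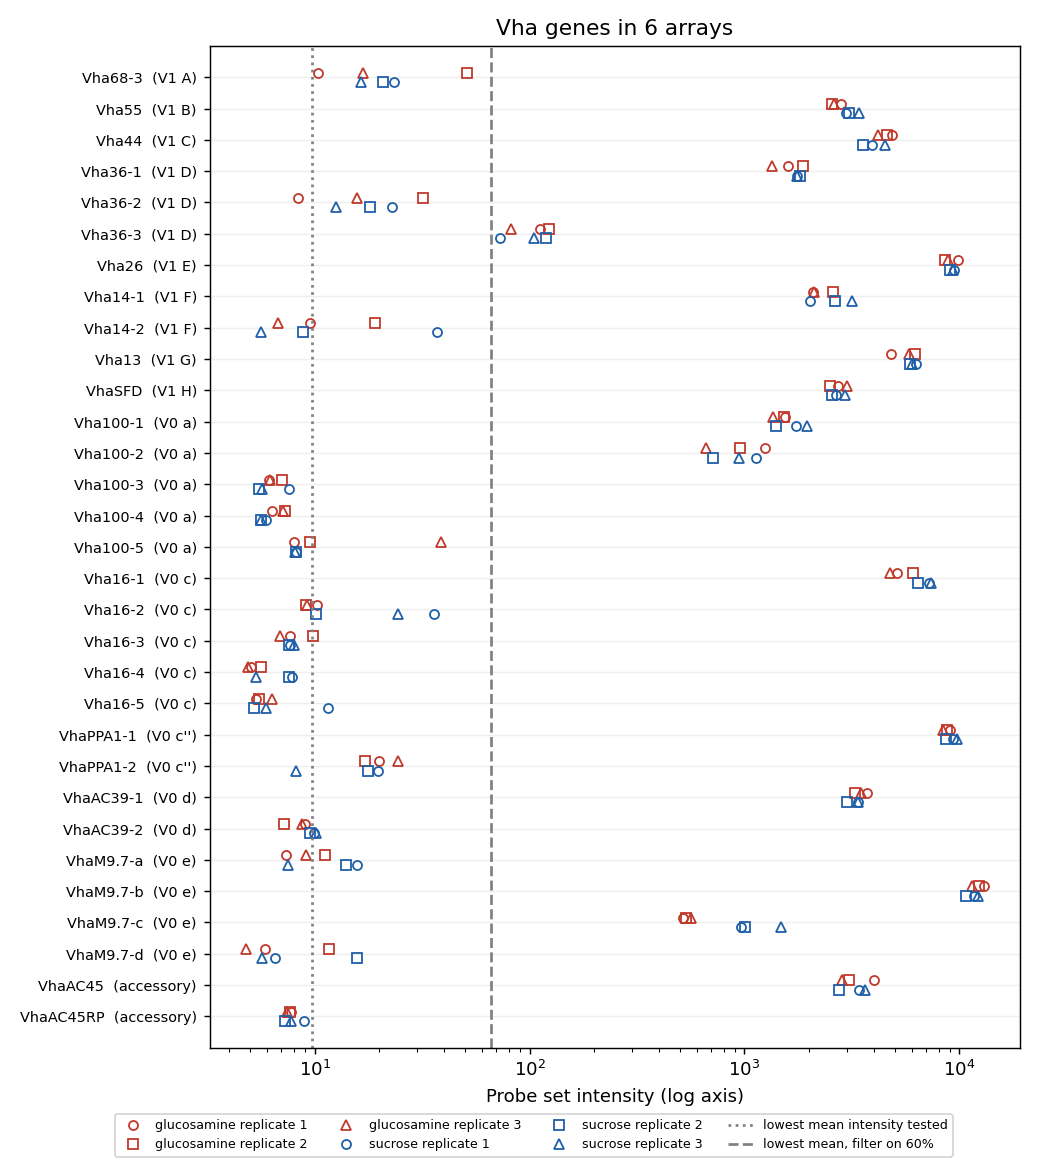
Probe set intensity (log axis) of all 31 Vha genes in the 3 glucosamine and 3 sucrose arrays, with dotted and dashed lines at the lowest mean that passed the filters on 40% and 60%. The 16 genes right of the dashed line hold at least 1 gene for every subunit except A, and for most of them the symbols of both groups lie on top of each other.

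The transcripts of the pump differed little between the diets. Of 23 tested Vha genes, VhaM9.7-c was lower after glucosamine, none were higher and 22 did not pass the threshold of an adjusted p of 0.05 (limma, Benjamini-Hochberg over all 10021 features tested). Of all 10021 features, 18.6% passed in either direction, 8.64% lower and 9.92% higher, against 4.35% of the Vha genes. Among the 16 Vha genes with clear signal 1 passed, or 6.25%, where 27.9% of all 6681 features passed in the fit with that stricter filter, 13.7% lower and 14.2% higher. The call for VhaM9.7-c was lost without glucosamine replicate 1 (adjusted p = 0.0615) and also when glucosamine replicate 3 was dropped together with sucrose replicate 1 (adjusted p = 0.0744).

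The sizes of the differences were small as well. They are given as glucosamine minus sucrose after taking log2(intensity + 16), a scale that understates the change of dim genes. The median over the 23 genes was −0.03, the same to 2 decimals as the −0.03 of all features tested. The median size without regard to sign was 0.16 for the 23 genes and 0.34 for all features. For the 16 genes with clear signal it was 0.11, beside 0.43 for all features that passed the same filter. Leaving out VhaM9.7-c, the 95% intervals of the other 15 all lay within a 2-fold change in either direction, and 10 lay within a 1.5-fold change. The lowest bound among the 15 was −0.75, for Vha16-1, and the highest was 0.67, for Vha100-2. Of the 23 genes, 3 had all arrays of one group above all of the other (13.0%, beside 39.0% of all features and 47.2% of those past the stricter filter), namely VhaM9.7-c, Vha16-1 and Vha55.

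**Figure D2:**
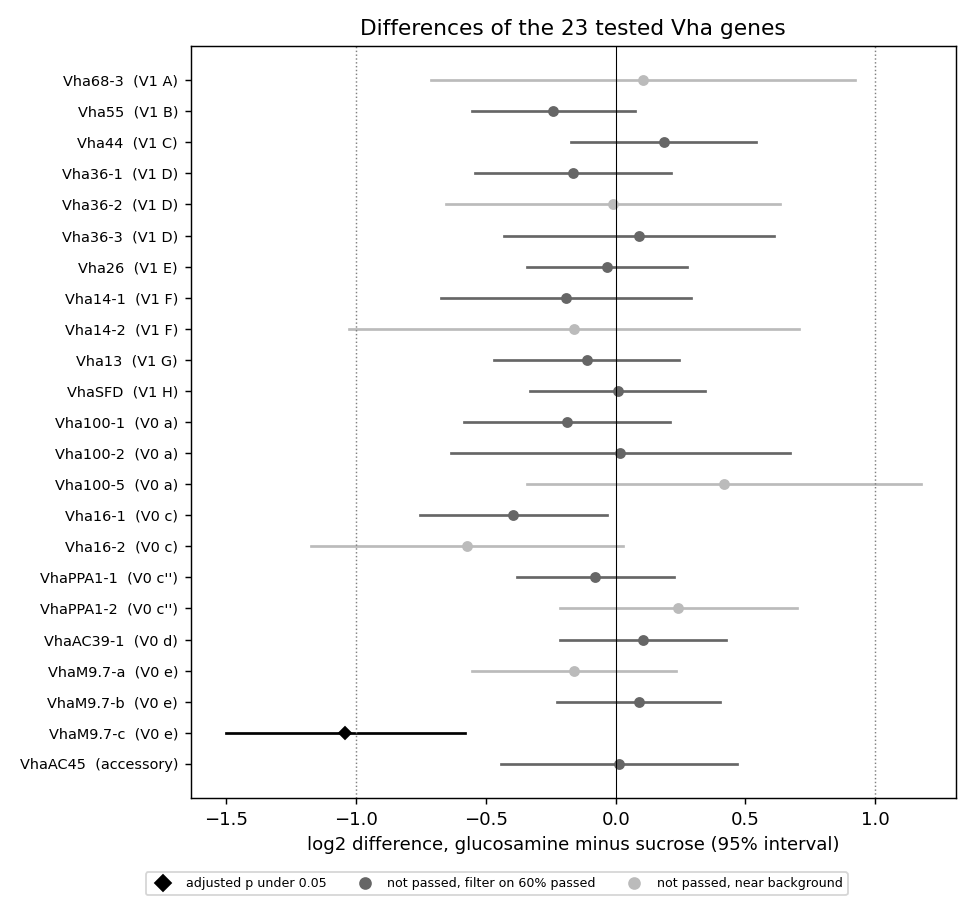
Log2 differences of the 23 tested Vha genes, glucosamine minus sucrose, with their 95% intervals from limma; dotted lines mark a 2-fold change. VhaM9.7-c, the black diamond at −1.04, is the only gene past the threshold, and the wide pale intervals belong to genes near background.

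In the V1 sector, none of 11 tested genes passed, and their differences ran from −0.24 to 0.18. Vha55 encodes subunit B, which binds nucleotide beside the catalytic A subunit. It read 2825, 2564 and 2596 in the glucosamine arrays and 2982, 3068 and 3404 in the sucrose arrays. The groups did not overlap, yet the difference of −0.24 had a 95% interval from −0.56 to 0.07 and did not pass (limma adjusted p = 0.253).

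Subunits C, E, G and H belong to the stalks and the collar that hold V1 against V0. Vha26, the subunit E gene, was at 9871, 8530 and 8870 after glucosamine and at 9451, 9088 and 9301 after sucrose. Both sets of values overlapped, with a difference of −0.03 and an interval from −0.34 to 0.28. Vha44, the subunit C gene, read 4839, 4594 and 4175 against 3939, 3561 and 4504. Its difference of 0.18, with an interval from −0.17 to 0.54, was the highest estimate in the sector. The annotated span of Vha44 overlaps that of Hmgs, which differed by 0.29 without passing (limma adjusted p = 0.304). The part of this overlap in the Vha44 values was not tested. Vha13, for subunit G, read 4796, 6235 and 5835 against 6281, 5862 and 5990, a difference of −0.11 (interval −0.47 to 0.24). In Vha13 a single array, glucosamine replicate 1, lay below the rest. VhaSFD, for subunit H, which in yeast keeps detached V1 from wasting ATP, read 2726, 2495 and 3011 against 2668, 2566 and 2947. Its difference of 0.01 had an interval from −0.33 to 0.34.

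Subunits D and F form the central shaft. Vha36-1, the subunit D gene with strong signal, read 1586, 1865 and 1348 against 1763, 1810 and 1764 (difference −0.16, interval −0.54 to 0.21). The glucosamine values reached above and below the sucrose values, which lay close together. Vha14-1, for subunit F, read 2086, 2592 and 2096 against 2028, 2639 and 3162 (difference −0.19, interval −0.67 to 0.29), with wide overlap. Vha36-3, a second subunit D gene, was dimmer but clear, with 112, 123 and 82.0 against 72.5, 119 and 105 and a difference of 0.09 (interval −0.43 to 0.61).

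In the V0 sector, VhaM9.7-c fell and the other 10 of 11 tested genes did not pass. The large a subunits hold the half-channels through which protons enter and leave the ring, and in flies the a subunit of Vha100-1 is known from synaptic vesicles. Vha100-1 read 1541, 1531 and 1355 in the glucosamine arrays against 1742, 1400 and 1949 in the sucrose arrays, a difference of −0.19 (interval −0.59 to 0.21). Vha100-2 read 1244, 957.6 and 661 against 1129, 717.5 and 938, a difference of 0.02 (interval −0.64 to 0.67). Both genes overlapped between diets, and Vha100-2 had the largest spread between arrays of the 16 genes with clear signal, with a pooled within-group SD of 0.39 on the log2 scale. The annotated span of Vha100-1 overlaps that of Alg13, which fell by 0.79 (limma adjusted p = 0.0193), and the part of this overlap in the Vha100-1 values was not tested.

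The c and c″ subunits build the rotating ring, and subunit d caps it below the shaft. Vha16-1, the gene of the main ring subunit c, read 5136, 6078 and 4777 in the glucosamine arrays and 7183, 6412 and 7375 in the sucrose arrays. All glucosamine values lay below all sucrose values, with a difference of −0.39 ± 0.15 (SE; interval −0.75 to −0.04). The gene did not pass, with a limma adjusted p of 0.121. A second probe set of Vha16-1 read 3276, 3816 and 3433 against 3152, 3242 and 3414, with groups that overlapped and a difference of 0.10 (interval −0.21 to 0.41). The two-sided exact permutation test of the gap between the probe sets gave p = 0.1, the smallest that 3 arrays against 3 allow, for a mean gap of −0.49 on the log2 scale, with 3 of 3 glucosamine arrays below every sucrose array. That comparison was not planned, and it was made after the values of both probe sets were seen.

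VhaPPA1-1, for the ring subunit c″, read 9045, 8791 and 8402 against 9324, 8706 and 9699, and VhaAC39-1, for subunit d, read 3728, 3253 and 3500 against 3358, 2996 and 3391. These were among the steadiest members: VhaPPA1-1 had the lowest within-group SD of the 16 genes, 0.07. Their differences were −0.08 (interval −0.38 to 0.22) and 0.10 (interval −0.22 to 0.43). VhaAC45, for an accessory protein that helps to assemble and sort the pump, read 4014, 3059 and 2856 against 3424, 2742 and 3637, a difference of 0.01 (interval −0.44 to 0.47). ATP6AP2, the gene of the other accessory membrane protein, does not carry a Vha symbol and was added after the data were seen. It gave 2778, 3148 and 2669 against 2676, 2688 and 3240, with a difference of 0.00 (interval −0.35 to 0.36).

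The 1 member past the threshold belongs to subunit e, a very small membrane protein of V0 for which the fly has several genes. VhaM9.7-c read 517, 532 and 564 in the glucosamine arrays and 961, 1001 and 1475 in the sucrose arrays. All 3 glucosamine arrays lay close together and below every sucrose array, and sucrose replicate 3 was the highest. The means were 538 ± 23.8 and 1146 ± 286 (SD, n = 3 each), so the transcript fell by 1.04 ± 0.19 on the log2 scale (SE; interval −1.50 to −0.58; limma adjusted p = 0.0149), which is 2.06-fold lower on that scale. Without sucrose replicate 3 the difference was −0.85 (adjusted p = 0.0264).

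VhaM9.7-b, the subunit e gene with the brightest probe set of the family, did not pass the threshold. It read 12963, 12334 and 11494 after glucosamine against 11725, 10735 and 12154 after sucrose. The groups overlapped, and the difference was 0.09 (interval −0.23 to 0.40). Measured within each array, the log2 gap from VhaM9.7-b to VhaM9.7-c was −4.47 ± 0.15 in the glucosamine arrays and −3.34 ± 0.28 in the sucrose arrays (SD, n = 3 each). The group means of that gap differed by −1.13, with 3 of 3 glucosamine arrays below every sucrose array. The two-sided exact permutation p was 0.1, again the smallest possible. The pair was chosen after the values were seen. VhaM9.7-a and VhaM9.7-d were near the lower end of the array, at 7.34 to 15.7 and 4.82 to 15.7.

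Several other measures moved along with VhaM9.7-c. Of 7 nephrocyte markers 6 were lower after glucosamine and none were higher. That is 85.7%, beside 8.64% of all features lower, and 13.7% in the fit with the stricter filter. Among the 6 were the cubilin genes Cubn2 and Cubn, Amnionless, whose product works with cubilin in protein uptake, and the nephrin gene sns. In every array most of the summed intensity of all 7, given above, came from Amnionless, Cubn and Cubn2. The marker that did not pass overlapped between the groups. The sum did not overlap, nor did the 5′ minus 3′ signal of 3 of the 6 RNA controls. The part of these in the difference of VhaM9.7-c was not tested. In the RefSeq annotation the span of VhaM9.7-c overlaps those of Teh2 and CG18675. Teh2 had intensities from 6.20 to 7.46 in all arrays, too dim to be tested, and CG18675 was not analysed here.

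**Figure D3:**
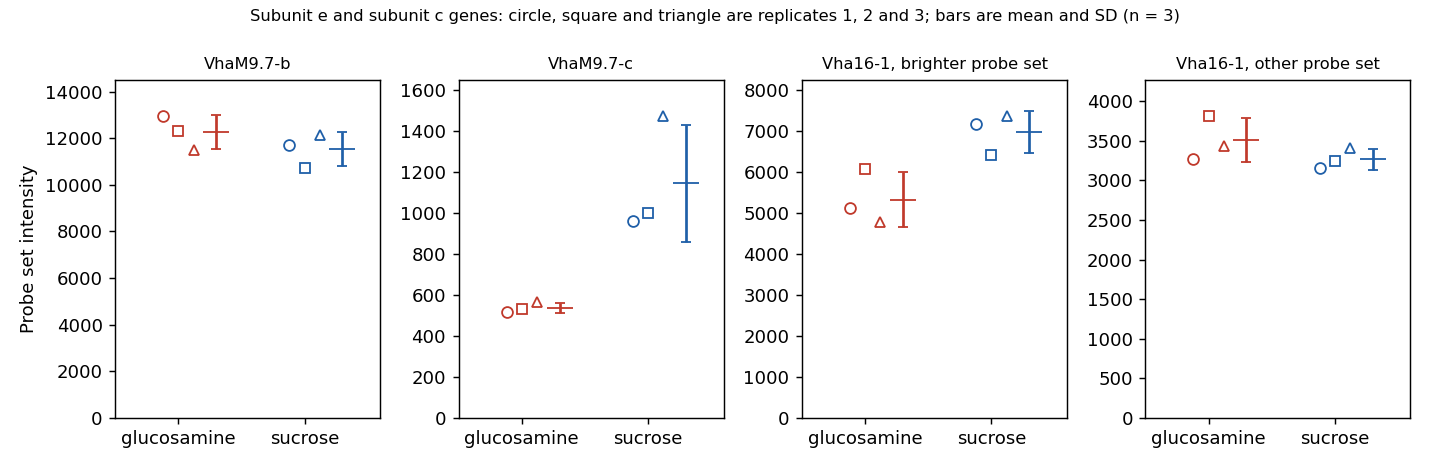
Intensity of the subunit e genes VhaM9.7-b and VhaM9.7-c and of both Vha16-1 probe sets in each array, with mean and SD (n = 3) beside the points. VhaM9.7-c falls from 1146 to 538 while VhaM9.7-b stays within its spread, and the groups separate for the brighter Vha16-1 probe set only.

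The genes near background hold the extra copies of subunits that also have a bright gene, apart from subunit A, whose other genes were not analysed here. Vha68-3 (A), Vha36-2 (D), Vha14-2 (F), Vha100-5 (a), Vha16-2 (c), VhaPPA1-2 (c″) and VhaM9.7-a (e) were tested, with single-array intensities from 5.63 to 51.3. Their differences ran from −0.57 to 0.42, and none passed. The interval of Vha100-5 reached 1.18 and that of Vha16-2 reached −1.18, on the log2(intensity + 16) scale that understates changes of dim genes. With 1 added in place of 16, their differences were 0.76 and −1.05. For this set the intervals therefore do not bound a fold change of the transcript. Vha100-5 read 38.8 in glucosamine replicate 3 and 7.99 to 9.51 in every other array, so its difference of 0.42 (limma adjusted p = 0.406) comes from that array. Vha16-2 read 10.3, 9.08 and 9.26 after glucosamine and 35.8, 10.1 and 24.4 after sucrose. Its difference of −0.57 did not pass (adjusted p = 0.170), but it did without sucrose replicate 2, the array in which it was lowest of the 3 (−0.84, adjusted p = 0.0404). The untested genes were Vha100-3, Vha100-4, Vha16-3, Vha16-4, Vha16-5, VhaAC39-2, VhaM9.7-d and VhaAC45RP, with single-array intensities from 4.82 to 15.7.

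Some copies lie side by side in the genome. In the RefSeq gene order no protein-coding gene starts between Vha100-2 and Vha100-4, and of this pair Vha100-2 passed the strict filter and Vha100-4 was not tested. Between VhaPPA1-1, which passed the strict filter, and VhaPPA1-2, which passed only the filter on 40%, there is 1 such gene. The neighbours Vha16-2 and Vha16-3 were both near the array's lower end, with means of 16.5 and 7.96. These are readings of separate probe sets and give no order of RNA amounts.

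The members also varied little between arrays of the same diet. Over the 16 genes with clear signal the median within-group SD was 0.15 on the log2 scale, against 0.25 for all 6681 features that passed the same filter, and 13 of the 16 lay below that second value. No array was highest or lowest for most members. Glucosamine replicate 1 and sucrose replicate 3 each held the highest value of 6 genes, and glucosamine replicate 3 held the lowest value of 5 and sucrose replicate 2 of 4.

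Genes that work with the pump gave the following counts. Of 5 tested genes of its regulation and assembly none passed, where 18.6% of all features did, and 27.9% in the fit with the stricter filter. Mitf, the fly relative of the TFEB factors that switch on lysosomal and V-ATPase genes, was dim, at 21.9, 30.5 and 25.3 after glucosamine and 31.3, 42.3 and 34.5 after sucrose. Its groups did not overlap, and the difference was −0.31 ± 0.15 (SE; limma adjusted p = 0.206). Rbcn-3B, of the complex that joins V1 to V0, differed by 0.35, the TLDc-domain gene mtd by −0.53 and RagC-D, a GTPase gene of nutrient sensing at the lysosome, by −0.16, with adjusted p of 0.313, 0.107 and 0.582.

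Of 6 tested genes of chloride channels and transporters and of sodium-proton exchangers, 1 fell and none rose, which is 16.7% beside 18.6% of all features. The sodium-proton exchanger gene Nhe1 fell from 707 ± 137 to 396 ± 81.1 (SD, n = 3 each; log2 difference −0.81, limma adjusted p = 0.0387), and this passed in 1 of the 6 fits without 1 array. Nhe3 (0.34), ClC-a (−0.27) and ClC-c (−0.55) had adjusted p from 0.153 to 0.289.

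Among 18 tested lysosomal genes, 2 rose and 2 fell, with a median of −0.05. That is 22.2% in either direction, between the 18.6% of all features and the 27.9% in the fit with the stricter filter. Npc2a, which encodes a sterol-binding protein of the lysosome, read 6772, 7611 and 6670 after glucosamine and 4194, 3577 and 4290 after sucrose, and its rise of 0.80 (limma adjusted p = 0.0133) passed in all 6 fits without 1 array. Npc1a, for its membrane partner, rose by 0.52 (adjusted p = 0.0443), which passed in 0 of these fits. The beta-mannosidase gene beta-Man fell by 1.02 (adjusted p = 0.0148, passing in 5 of 6) and the lysosomal mannosidase gene LManII by 0.50 (adjusted p = 0.0486, passing in 0 of 6). With 1 array left out, 0 or 1 lysosomal gene fell and 1 or 2 rose, and with both glucosamine replicate 3 and sucrose replicate 1 dropped 0 passed in either direction.

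The mitochondrial F-type ATP synthase is the rotary relative of the V-ATPase and runs the other way, making ATP. Of its 11 tested genes 7 fell and none rose, with a median of −0.67, beside 1 of 23 and −0.03 for the Vha genes. The 7 are 63.6% of the list, where 8.64% of all features were lower, and 13.7% in the fit with the stricter filter. ATPsyndelta read 1322, 1693 and 1522 after glucosamine against 3280, 3271 and 2682 after sucrose, a fall of 1.02 (limma adjusted p = 0.00926). Falls of ATPsyngamma (−0.73), ATPsynB (−0.71) and ATPsynbeta (−0.67) had adjusted p from 0.0138 to 0.0242, and other probe sets of ATPsyngamma and ATPsynbeta fell by 0.86 and 0.84. Fits that dropped a single array called 1 to 4 of these genes, and the fit that dropped glucosamine replicate 3 together with sucrose replicate 1 called 0, with a median of −0.65. The difference between both enzymes' gene sets was not tested, and both sets were chosen with earlier results of these data known. The plot of gene lists shows them side by side.

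**Figure D4:**
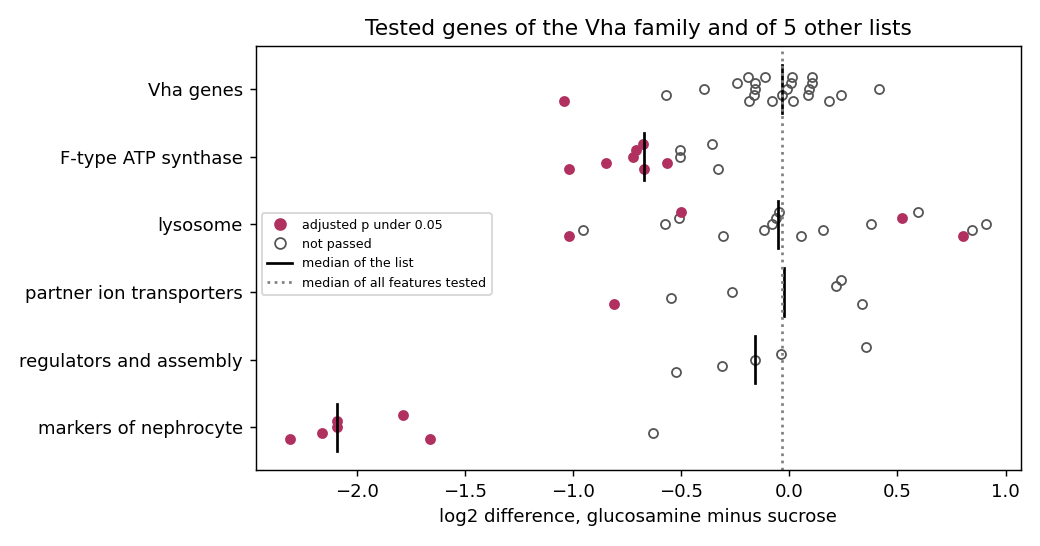
Log2 differences, glucosamine minus sucrose, of the tested genes of 6 lists, each point a gene, filled where the adjusted p was under 0.05, with a bar at each list's median and a dotted line at the median of all features tested. VhaM9.7-c at −1.04 is the only filled Vha point, the other Vha genes lie from −0.57 to 0.42 on both sides of the dotted line, and all 11 F-type ATP synthase genes have negative differences.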

How the data were processed

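The deposited values are linear intensities, 1 for each probe set in each array, and how probes were summarised, background-corrected and normalized is not given in the sources used here. Per the labels' protocols, biotinylated cRNA was prepared by Affymetrix's standard procedure. Upper quartiles of the 6 arrays lay between 222 and 237, so values were used as deposited. Of 18952 probe sets, 183 controls and 402 with several symbols were left out. The other probe sets were reduced to 1 per gene, 4720 without a symbol were kept, and of 16702 features the dimmest 40% by mean were dropped. The 10021 others were fitted on log2(intensity + 16) in R 4.3.3 with limma 3.58.1 (lmFit, then eBayes), two-sided. This leaves 3 arrays per group, and their number limits the precision. Symbols of 13544 of 13647 single-symbol probe sets matched RefSeq by Entrez identifier, and 0 changed. RefSeq's gene table (Release 6 plus ISO1 MT) gave names, overlaps and gene order. Exact permutation tests used scipy 1.17.1, and the fit was tested on simulated data.

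Every Vha gene is named. From each other list, up to 4 members of lowest unadjusted p could be named, and Mitf. The muscle, fat body, neuron and glia, and hemocyte lists are given by counts alone. Members and lists were chosen with earlier results of these data known. Marker lists covered nephrocytes, heart, muscle, Malpighian tubule, midgut, fat body, ovary, neurons and glia, and hemocytes. Of the heart markers 1 of 3 tested fell, and in the muscle, tubule, midgut, fat body, ovary, neuron and glia, and hemocyte lists none of 2, 2, 5, 5, 4, 3 and 4 tested members passed. Of all features tested, 18.6% passed in either direction, with 8.64% of all features lower and 9.92% higher. These lists are short, and members such as Jon65Aiii (SE 1.59) and osk (SE 1.07) varied widely, so a count of none does not show an unchanged tissue. Alternatives are given in the closing section.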

Additional observations from a re-analysis of the deposited data

How the results depend on the processing

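VhaM9.7-c had a negative difference in all 16 alternatives, from −1.19 to −0.85, and passed in 14 of them. The exceptions were the fit without glucosamine replicate 1 (adjusted p = 0.0615) and the fit that dropped glucosamine replicate 3 together with sucrose replicate 1, an alternative chosen after seeing the data (adjusted p = 0.0744), so the count of 1 lower Vha gene became 0 in both. Without 1 array the count of lower Vha genes was 0 to 2, and 0 Vha genes were called higher in each of the 16 alternatives. The median over the Vha genes was −0.19 to −0.02 without 1 array. It was 0.047 under cyclic loess, −0.0028 with both arrays dropped and 0.02 under quantile normalization. In that order the median of all features was −0.01, −0.02 and −0.04. The sign of the Vha median therefore has no weight. Over all features 1860 passed, 994 higher and 866 lower. Without 1 array 786 to 1467 passed, with 498 to 831 higher and 288 to 636 lower, and with both of those arrays dropped 331 passed, 211 higher and 120 lower.

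Replicate numbers are shared by the groups, but deviations of same-numbered arrays correlated at 0.02, −0.12 and −0.05, so the numbers were not taken as pairs. With the replicate number as a block 999 features passed, 593 higher and 406 lower, and VhaM9.7-c had an adjusted p of 0.0383. With 3 arrays per group, and 7 of the tested Vha genes near background, the intervals of genes that did not pass leave room for changes up to their bounds.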
